A study of Mus musculus with 12 samples.

Results

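The 10 genes described here are NF-κB subunits, the feedback genes of the pathway, and a ligand and a receptor of tumour necrosis factor (TNF) signalling. They are Nfkb1, Nfkb2, Rela, Relb, Nfkbia, Nfkbiz, Tnfaip3, Bcl3, Tnf and Tnfrsf12a. They were chosen by name, with earlier results of these data known, from the 48709 genes in the deposited tables, and 10 of 10 were found. RNA was sequenced from brain cells of C57BL/6 mice, selected through the astrocyte surface antigen ACSA-2. The cells were taken 24 h after a transient stroke (tMCAO), in which the middle cerebral artery of 1 hemisphere is blocked and then reopened. The mice were 90 to 120 postnatal days old. Every mouse carried 1 copy of Gfap-CreERT2, a tamoxifen-activated Cre recombinase under the Gfap promoter, together with floxed alleles that the active enzyme deletes. Mice 296, 297 and 474 received corn oil and are labelled wild-type, although they carry the Cre transgene and the floxed alleles too. Mice 295, 298 and 300 received tamoxifen and are labelled Nhe1 Astro-KO, shortened here to Astro-KO. The drug and the deletion therefore cannot be told apart. Each mouse gave a library from the occluded (ipsilateral) and a library from the opposite (contralateral) hemisphere, which makes 12 libraries in 4 groups of 3.

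NF-κB is a family of transcription factors that bind DNA as pairs of Rel subunits. In resting cells inhibitors of the IκB class hold the pairs in the cytoplasm. Signals from TNF, interleukin 1 and Toll-like receptors activate the IκB kinase (IKK), which marks the inhibitor for degradation, and the freed pair enters the nucleus. A slower, non-canonical route runs through the kinase NIK, encoded by Map3k14, and the processing of the Nfkb2 product. Several of the genes that NF-κB switches on, Nfkbia and Tnfaip3 among them, encode proteins that shut the pathway down again. In the brain the pathway is known for the inflammatory response of glia and vessels after injury, and microglia are a well known source of TNF.

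The promoters printed here show where letters that NF-κB reads lie in those of the genes that had a promoter entry. Of the 10 genes, 7 had promoter windows of 300 bases, from 250 bases before to 50 after an annotated start, in the RefSeq table for GRCm38.p6. These were Nfkb2, Rela, Nfkbia, Tnfaip3, Bcl3, Tnf and Tnfrsf12a, and Nfkb1, Relb and Nfkbiz had none. The κB consensus, a motif of 10 letters, was searched on both strands. It matched in 4 of the 7 genes, namely Nfkb2, Nfkbia, Tnfaip3 and Bcl3, and at more than 1 position in Nfkb2 and Tnfaip3. Tnfaip3 had windows for 2 starts, and the other window held no match. Among all 27025 genes with a window, 5.14% had a match and 0.644% had 2 or more. Matching letters do not show that a factor binds there. The bases before the start are printed 5′ to 3′ on the gene's strand, in lower case with matches in capitals. The Tnfaip3 stretch begins after an annotated exon of another Tnfaip3 transcript and runs to the start. Nfkbia lies at chr12:55492648-55492897, Tnfaip3 at chr10:19015411-19015547 and Tnf at chr17:35202008-35202257, all on the minus strand. Tnf is shown as the ligand gene with no match in its window.
Nfkbia: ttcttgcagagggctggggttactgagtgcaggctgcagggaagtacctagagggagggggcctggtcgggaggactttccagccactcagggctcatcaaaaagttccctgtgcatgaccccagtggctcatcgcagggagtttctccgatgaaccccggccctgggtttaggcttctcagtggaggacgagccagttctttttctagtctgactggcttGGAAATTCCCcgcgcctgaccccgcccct
Tnfaip3: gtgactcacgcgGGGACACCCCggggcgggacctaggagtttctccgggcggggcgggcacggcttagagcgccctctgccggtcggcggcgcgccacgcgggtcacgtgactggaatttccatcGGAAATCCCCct
Tnf: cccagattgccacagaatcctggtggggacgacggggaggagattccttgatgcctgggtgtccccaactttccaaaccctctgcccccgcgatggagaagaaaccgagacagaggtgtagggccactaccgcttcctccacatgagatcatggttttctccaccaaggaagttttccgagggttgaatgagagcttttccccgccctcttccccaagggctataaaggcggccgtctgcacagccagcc

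The Nfkbia match lies 29 to 20 bases before the start and reads GGGAATTTCC on the opposite strand. In Tnfaip3 the matches lie 125 to 116 and 12 to 3 bases before the start. Nfkb2 has windows for 3 starts. Before the first of them it has GGGAATTCCC, which reads the same on both strands and overlaps a further match shifted by 1 base, and GGGGCTTTCC. The window of the next start holds GGAATGTCCC, and between the later starts lies the exact site of the immunoglobulin κ enhancer, the first NF-κB site described. That exact site, also of 10 letters, occurred in 51 of 32851 windows (0.155%), 2 of which are overlapping Nfkb2 windows that share it. The consensus was in 4.51% of these windows. Bcl3 has its match, GGGAAGTCCC on the gene strand, 3 to 12 bases after the start. Rela and Tnfrsf12a, like Tnf, had no match in these windows.

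The end of the Tnf message carries another regulatory sequence. AU-rich elements, built from AUUUA pentamers in the 3′ UTR, are known to shorten the life of cytokine messages. Tnf has 8 such pentamers in a 3′ UTR of 764 bases, or 10.5 per kb, and 1.14% of 20446 mouse genes were at least as dense. The densest stretch, at chr17:35199679-35199705 on the minus strand of mm10 (GENCODE M21), holds 5 of the 8 and is printed as DNA with the pentamers in capitals.
Tnf 3′ UTR: ATTTAttATTTATTTAttATTTATTTA

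Of the feedback genes, Tnfaip3 has 5 pentamers, Nfkbiz 4 and Nfkbia 2. Among the subunits Nfkb1 has 4 and Nfkb2 has 1, while Rela, Relb, Bcl3 and Tnfrsf12a have none in the annotated 3′ UTR. The median over the 10 genes was 2.85 pentamers per kb, against 1.20 over all genes. In plain counts the medians were closer, at 1.5 and 1.0 pentamers.

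The 12 libraries held 11187723 to 15780600 counts, of which 0.923 to 1.83% were mitochondrial, and 15571 genes had enough counts to be tested. Levels are in CPM, counts scaled to a common library size with TMM factors, as mean ± SD over 3 libraries. A gene is called where its edgeR adjusted p is under 0.05. Astrocyte markers were present throughout, 10 genes summing to 8844 to 28459 CPM per library. Other cells had left RNA as well. Oligodendrocyte markers summed to 6208 to 24346 CPM, choroid plexus and ependymal ones to 959 to 8288, endothelial ones to 1314 to 2167 and mural (pericyte and smooth muscle) ones to 679 to 1503. Microglial markers summed to 395 to 2354, those of monocytes and macrophages to 74.1 to 309, and neuronal ones to 30.4 to 90.3. Neutrophil markers summed to 12.1 to 122, with Ly6g at 0 outside mouse 296, and lymphocyte markers to 1.35 to 3.03, with 1 to 5 of 10 genes at 0 in each library. No astrocyte or microglial marker was at 0 in any library. Mouse 296 stood apart, with the most neutrophil marker counts in either hemisphere (57.9 and 122 CPM). It was also the only mouse with Y-linked expression (2733 and 2917 counts, against 0 to 8 elsewhere). Counts of the female-expressed Xist were 8 and 4 in this mouse and 9140 to 29592 in the other libraries. By these counts mouse 296 was male and all Astro-KO mice were female. In a bulk sample, fewer cells of a type and less RNA per cell cannot be told apart.

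**Figure D1:**
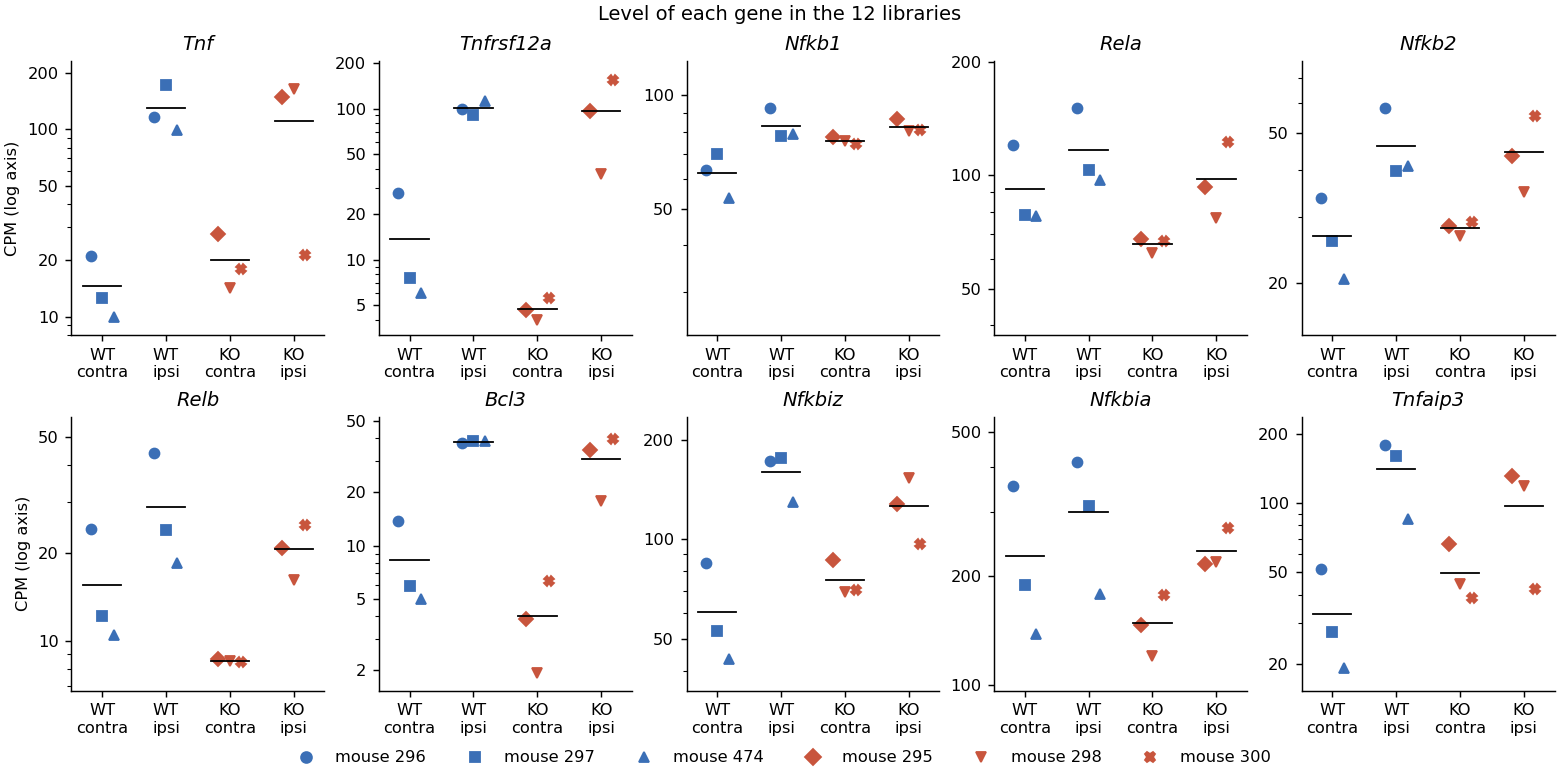
Level of each of the 10 genes in CPM (log axis) in the 12 libraries, by group; each symbol is 1 mouse and the bar is the mean of 3. Tnf, Tnfrsf12a and Bcl3 are among the 7 genes that separate the hemispheres in wild-type mice. In Astro-KO mice the ipsilateral Tnf level of mouse 300, 21.3 CPM, lies among the contralateral ones.

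The first comparison sets the occluded against the opposite hemisphere in mice labelled wild-type. This difference is called the occlusion response here. All 12 libraries are from mice with the occlusion and none from unoperated mice, so a change shared by both hemispheres would not show. The ligand gene Tnf, the receptor gene Tnfrsf12a, the subunit genes Nfkb1 and Nfkb2, the IκB-family genes Bcl3 and Nfkbiz and the feedback gene Tnfaip3 rose on the occluded side. Rela, Relb and Nfkbia did not pass the test. The rises ran from 1.34-fold for Nfkb1 to 8.90-fold for Tnf. In all, 7 of 10 genes were called higher, against 9.61% of all genes tested, and 0 lower, against 9.54%. At an unadjusted p under 0.05 in edgeR there were 8, against 34.2%. The libraries of the hemispheres did not overlap in the same 7 genes, against 17.3% of all genes in that direction. The median log2 fold change was 1.14 over the 10 genes and -0.06 over all genes.

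Tnf (ENSMUSG00000024401, chromosome 17, 35199381 to 35202007, minus strand, mm10) encodes tumour necrosis factor itself, the founding cytokine of its family. In wild-type mice 296, 297 and 474 it stood at 21.1, 12.6 and 10 CPM contralaterally and at 117, 174 and 99.1 ipsilaterally. Every ipsilateral library was far above every contralateral one. The means were 14.6 ± 5.82 and 129.7 ± 38.9 CPM, and the log2 fold change was 3.15 ± 0.61 (SE; edgeR adjusted p = 0.00573).

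Tnfrsf12a (ENSMUSG00000023905, chromosome 17, 23675445 to 23677468, minus strand) encodes Fn14, the receptor of the TNF family ligand TWEAK. Its contralateral levels were 27.7, 7.54 and 6.03 CPM in the 3 mice and its ipsilateral levels 99.0, 90.3 and 113. The groups did not overlap, although mouse 296 was well above the other mice contralaterally. Tnfrsf12a rose by 2.87 ± 0.57 (edgeR adjusted p = 0.00642).

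Among the DNA-binding subunits the changes were small. Nfkb1 (ENSMUSG00000028163, chromosome 3, 135584655 to 135691547, minus strand) encodes p105, the precursor of p50. It went from 63.2, 69.8 and 53.5 CPM to 92.5, 78.0 and 79.0, with no overlap and a log2 fold change of 0.42 ± 0.12 (edgeR adjusted p = 0.0319). Nfkb2 (ENSMUSG00000025225, chromosome 19, 46304320 to 46312385, plus strand) encodes p100, the precursor of p52. It went from 33.6, 25.8 and 20.5 CPM to 58.2, 39.6 and 40.8, again without overlap, a rise of 0.80 ± 0.22 (edgeR adjusted p = 0.0266). Exons of Psd and AC114539.1 overlap Nfkb2 on the opposite strand, and the strand of counting is not given in the sources used here.

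Rela (ENSMUSG00000024927, chromosome 19, 5637483 to 5648130, plus strand), which encodes the activating subunit p65, had 119.9, 78.4 and 77.9 CPM contralaterally and 151, 103 and 97.0 ipsilaterally. The groups overlapped, since mouse 296 was highest on both sides, and the difference of 0.34 ± 0.22 did not pass (edgeR adjusted p = 0.301). Relb (ENSMUSG00000002983, chromosome 7, 19606217 to 19629438, minus strand), the partner of p52 in the non-canonical route, had 24.2, 12.1 and 10.5 CPM contralaterally and 44.0, 24.1 and 18.5 ipsilaterally. It too was highest in mouse 296 on both sides, and its difference of 0.89 ± 0.35 did not pass (edgeR adjusted p = 0.0963).

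Bcl3 (ENSMUSG00000053175, chromosome 7, 19808462 to 19822770, minus strand) encodes a nuclear IκB-like protein that works with p50 and p52 pairs. It went from 13.8, 5.95 and 5.04 CPM to 37.8, 38.5 and 38.8. The ipsilateral libraries were nearly equal, and mouse 296 was again highest contralaterally. The rise was 2.22 ± 0.45 (edgeR adjusted p = 0.00673). Exons of Gm16175 overlap Bcl3 on the opposite strand.

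Nfkbiz (ENSMUSG00000035356, chromosome 16, 55811375 to 55838899, minus strand) encodes IκBζ, a nuclear cofactor for a subset of NF-κB targets. Its levels were 85.0, 52.8 and 43.6 CPM contralaterally and 172, 176 and 129.8 ipsilaterally. These groups did not overlap, and the gene rose by 1.40 ± 0.25 (edgeR adjusted p = 0.00363).

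Tnfaip3 (ENSMUSG00000019850, chromosome 10, 19000910 to 19015657, minus strand) encodes A20, a ubiquitin-editing enzyme that ends signalling from TNF receptors. It went from 51.8, 27.6 and 19.1 CPM to 178, 161 and 85.3. All ipsilateral libraries were above all contralateral ones, and the rise was 2.11 ± 0.46 (edgeR adjusted p = 0.00997). Nfkbia (ENSMUSG00000021025, chromosome 12, 55489410 to 55492647, minus strand) encodes IκBα, the inhibitor that NF-κB itself induces. Its levels, 355, 189 and 139 CPM contralaterally and 412, 312 and 179 ipsilaterally, overlapped widely, and the difference of 0.40 ± 0.34 did not pass (edgeR adjusted p = 0.435).

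With the mouse as a block 9 of the 10 genes were called in wild-type mice, Relb (edgeR adjusted p = 0.00389) and Nfkbia (0.0343) joining. All 9 were higher, and 14.7% of all genes were called higher in that fit. The count was 0 without mouse 297, with edgeR adjusted p of 0.0615 for Nfkbiz to 0.112 for Nfkb2 among the 7, and 4 without mouse 474. Microglial markers summed to 553 to 610 CPM contralaterally and 954 to 1415 ipsilaterally in the same libraries, 0 of 10 being called (median log2 fold change 0.96). The monocyte and macrophage list had 2 of 10 called higher, from 74.1 to 82.2 CPM in sum to 112 to 190. Of the astrocyte markers 8 of 10 fell, from 16959 to 22565 CPM in sum to 8844 to 10068. What part these markers have in the rises was not tested.

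**Figure D2:**
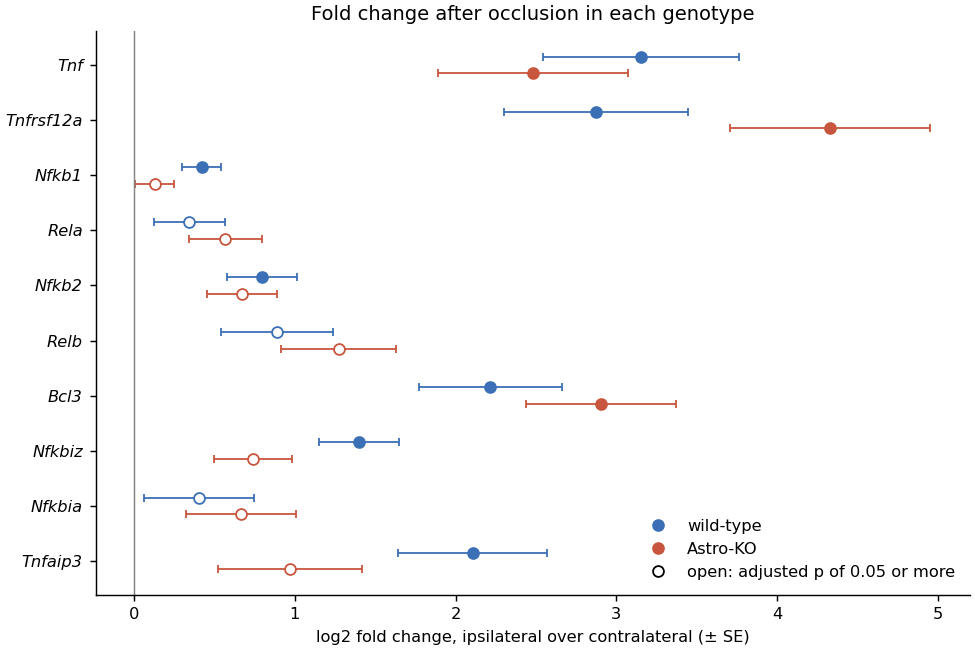
Log2 fold change (ipsilateral over contralateral) of each gene with its SE, in wild-type and in Astro-KO mice; filled points have an edgeR adjusted p under 0.05. Filled points number 7 in wild-type and 3 in Astro-KO mice. In a fit with the mouse as a block, 9 of the 10 genes were called in each genotype. The difference between the genotypes passed for none of the 10 genes.

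The same comparison of hemispheres was made in mice labelled Astro-KO, which had received tamoxifen. Tnfrsf12a, Bcl3 and Tnf rose. The other 7 genes were also higher ipsilaterally in their means, by 0.13 to 1.27 on the log2 scale, and did not pass the test. The share called was 3 of 10, all higher, against 6.29% of all genes tested (5.45% higher and 0.841% lower). At an unadjusted p under 0.05 in edgeR there were 7, against 26.3%. In CPM the ipsilateral libraries lay above the contralateral ones without overlap in 8 of 10 genes, against 18.6% of all genes. The exceptions were Tnf and Tnfaip3. The opposite order without overlap held for 0 of the 10 and for 20.2% of all genes. In the deposited TPM Nfkb1 overlapped as well, at 41.4 to 43.5 contralaterally and 35.3 to 46.6 ipsilaterally. So did Nfkbiz, at 48.7 to 60.6 and 52.4 to 101. The median log2 fold change was 0.85 over the 10 genes and -0.01 over all genes.

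Tnfrsf12a showed the largest change among the 10 genes. In mice 295, 298 and 300 it went from 4.66, 3.97 and 5.61 CPM to 96.7, 36.9 and 154. The contralateral libraries were close together, and the lowest ipsilateral one, of mouse 298, was still well above them. The rise was 4.33 ± 0.62, or 20.1-fold (edgeR adjusted p = 0.00633). Bcl3 went from 3.85, 1.91 and 6.36 CPM to 34.4, 17.8 and 39.7, without overlap, a rise of 2.91 ± 0.47 (edgeR adjusted p = 0.00939).

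Tnf had 27.7, 14.3 and 17.9 CPM contralaterally and 148, 164 and 21.3 ipsilaterally in the 3 mice. The ipsilateral library of mouse 300 lay below the contralateral library of mouse 295, so that the groups overlapped. The fitted rise was 2.48 ± 0.59 (edgeR adjusted p = 0.0323). It was lost in 7 of 18 fits that left out a library or a mouse. These were the fits without the contralateral library of mouse 295, 298 or 300, without the ipsilateral library of mouse 295, and without mouse 295, 297 or 298 (edgeR adjusted p = 0.0567 to 0.181).

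Tnfaip3 had 66.7, 44.3 and 38.7 CPM contralaterally and 132, 118 and 42.5 ipsilaterally. Here too the ipsilateral level of mouse 300 was among the contralateral ones, and the difference of 0.97 ± 0.45 did not pass (edgeR adjusted p = 0.194). Nfkbiz, at 86.9, 69.5 and 70.4 CPM against 128, 154 and 96.9, did not overlap in CPM but had the smallest gap in mouse 300 (0.74 ± 0.24; edgeR adjusted p = 0.0875).

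Nfkbia had 147, 121 and 177 CPM contralaterally and 217, 218 and 270.5 ipsilaterally (0.66 ± 0.34; edgeR adjusted p = 0.239). Relb had 8.67, 8.53 and 8.44 CPM contralaterally and 20.9, 16.2 and 25.0 ipsilaterally (1.27 ± 0.36; edgeR adjusted p = 0.0558). In CPM both genes were highest ipsilaterally in mouse 300, the mouse in which Tnf was lowest. In TPM Relb was highest in mouse 295 (18.0, against 17.5 in mouse 300). Nfkbia was nearly level in TPM, at 460, 458 and 466 in mice 295, 298 and 300.

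Rela went from 67.8, 62.3 and 67.0 CPM to 93.0, 76.8 and 123 (0.57 ± 0.22; edgeR adjusted p = 0.139). Nfkb2 went from 28.3, 26.6 and 29.0 CPM to 43.5, 35.0 and 55.5 (0.67 ± 0.22; edgeR adjusted p = 0.0851). The hemispheres were apart in both, with mouse 300 again highest ipsilaterally. Nfkb1, at 77.3, 75.5 and 74.1 CPM against 86.7, 80.6 and 80.8, was apart by a small margin (0.13 ± 0.12; edgeR adjusted p = 0.519). With TPM in place of counts its value was -0.04 and the hemispheres overlapped.

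With the mouse as a block 9 of 10 genes were called in Astro-KO mice, all but Nfkb1, with edgeR adjusted p of 0.00487 for Relb to 0.0467 for Tnfaip3 among the 6 that joined. All 9 were higher, and 10.9% of all genes were called higher in that fit. Leaving out mouse 295, or the contralateral library of mouse 298, brought the count to 0. It was 5 without the ipsilateral library of mouse 298 or the contralateral library of mouse 296, and 7 without mouse 296, a wild-type animal that enters through the shared estimate of spread. The Tnfrsf12a call was also lost without mouse 300 (edgeR adjusted p = 0.0676). Microglial markers summed to 898 to 1380 CPM contralaterally and 395 to 2354 ipsilaterally, and 0 of 10 were called (median 0.34). Oligodendrocyte markers went from 6208 to 8690 CPM in sum to 10591 to 24289, with 2 of 10 called higher. Their part in these results was not tested.

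Mouse 300 divided the 10 genes. Its log2 difference between the hemispheres was the lowest of the 6 mice for Tnf (0.25, against 2.41 to 3.77 in the other mice), Tnfaip3 (0.14, against 0.98 to 2.53) and Nfkbiz (0.46, against 0.56 to 1.74). The same mouse had the highest difference for Tnfrsf12a (4.75), Relb (1.55) and Rela (0.87). Microglial markers in its ipsilateral library summed to 395 CPM, the lowest of the 12 libraries, against 898 CPM in its contralateral library. Oligodendrocyte markers in that library summed to 24289 CPM, against 10591 and 11276 in the other ipsilateral Astro-KO libraries. It also had the highest mitochondrial share of the 12 libraries (1.83%, against 1.13% in the contralateral library of the mouse) and the lowest total, 11187723 counts. What part these have in the values of mouse 300 was not tested. Without the ipsilateral library of mouse 300 the Tnf rise was 2.95 (edgeR adjusted p = 0.00314) and the Tnfrsf12a rise 3.79 (0.0146).

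**Figure D3:**
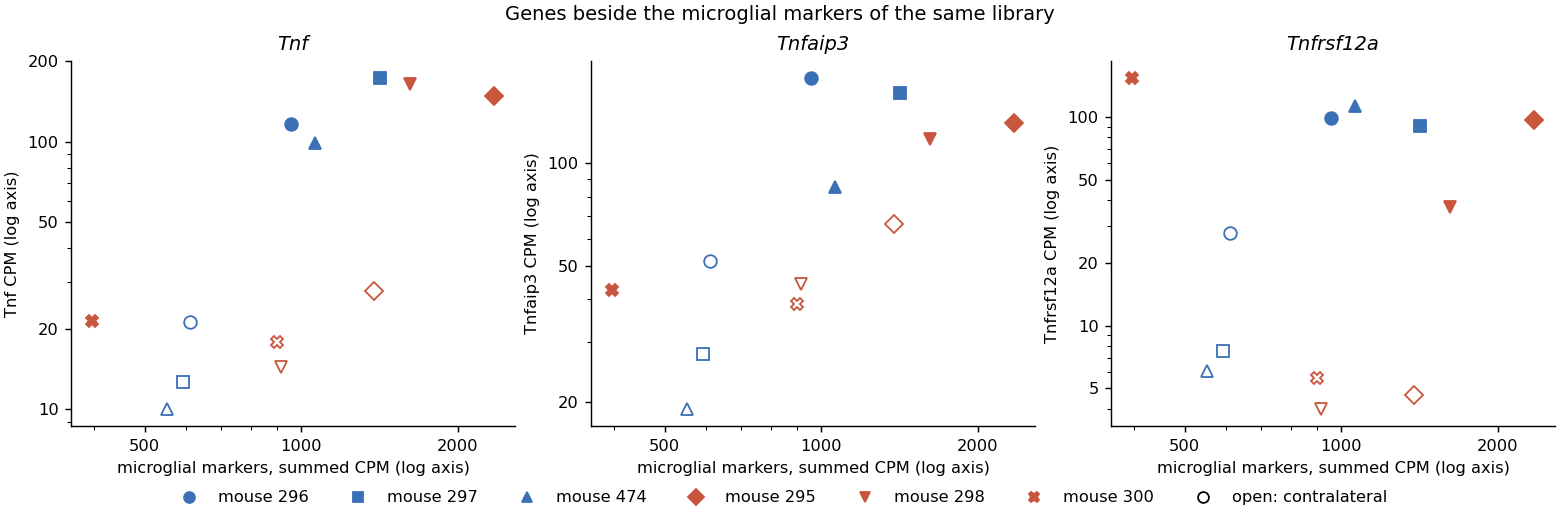
Level of Tnf, Tnfaip3 and Tnfrsf12a (CPM, log axis) against the summed CPM of 10 microglial markers in the same library (log axis); filled symbols are ipsilateral and open ones contralateral, blue wild-type and red Astro-KO. The ipsilateral library of mouse 300 has the lowest marker sum, 395 CPM, with 21.3 CPM of Tnf, 42.5 of Tnfaip3 and 154 of Tnfrsf12a.

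Mouse 296 differed the other way. Its contralateral library had the highest wild-type contralateral level in 9 of the 10 genes, the exception being Nfkb1, and its differences for Tnfrsf12a (1.83) and Bcl3 (1.44) were the lowest of the 6 mice. Neutrophil markers were highest in this mouse, as given above. Without mouse 296 the wild-type rise was 3.91 for Tnfrsf12a (edgeR adjusted p = 0.00271) and 2.82 for Bcl3 (0.00468). Across both genotypes, each of the 10 genes was higher ipsilaterally in CPM in 6 of 6 mice, which held for 19.0% of all genes. The smallest of these 60 differences was 0.09, for Nfkb1 in mouse 298. In the deposited TPM the order was reversed in mouse 300 for Nfkb1 (41.4 contralaterally and 35.3 ipsilaterally). The same held there for Tnf (37.9 and 35.3) and Tnfaip3 (18.6 and 16.0).

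**Figure D4:**
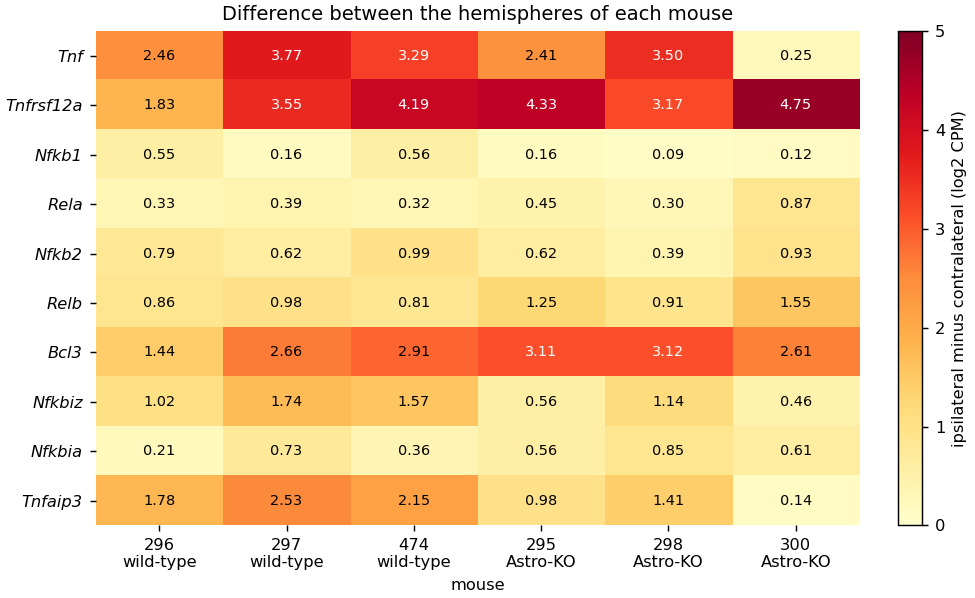
Ipsilateral minus contralateral log2 CPM of each gene in each mouse, with the value printed in the cell and darker red for larger differences. All values are above 0 on this CPM scale, and mouse 300 combines 0.25 for Tnf and 0.14 for Tnfaip3 with 4.75 for Tnfrsf12a.

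The 2 genotypes were then compared within a hemisphere. On the contralateral side none of the 10 genes was called, against 1.50% of all genes tested (0.0835% higher and 1.41% lower). At an unadjusted p under 0.05 there were 4, against 14.3% of all genes. Nfkb1 was higher in Astro-KO mice (0.28 ± 0.12; edgeR adjusted p = 0.317). Relb (-0.87 ± 0.36; 0.297), Bcl3 (-1.02 ± 0.46; 0.344) and Tnfrsf12a (-1.53 ± 0.59; 0.270) were lower. DESeq2 and limma-voom called 0 of the 10 genes as well. Libraries did not overlap for Nfkb1, which was higher (11.0% of all genes), and for Rela, Relb and Tnfrsf12a, which were lower (13.5%).

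The contralateral levels themselves show how much of this rests on mouse 296. Relb stood at 8.44 to 8.67 CPM in the Astro-KO libraries and at 10.5, 12.1 and 24.2 in the wild-type ones. Tnfrsf12a stood at 3.97 to 5.61 and at 6.03, 7.54 and 27.7. The third value in both series is mouse 296, the only mouse with Y-linked expression, and the part of sex was not tested. Without that mouse the differences were -0.40 for Relb, -0.51 for Tnfrsf12a and -0.43 for Bcl3. In the same contralateral libraries microglial markers summed to 553 to 610 CPM in wild-type and 898 to 1380 in Astro-KO mice, and oligodendrocyte markers to 20007 to 21371 and 6208 to 8690. Their part was not tested.

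On the ipsilateral side none of the 10 genes was called, against 6.31% of all genes (1.98% lower), and 0 had an unadjusted p under 0.05 in edgeR, against 21.8%. DESeq2 and limma-voom again called 0. The means of all 10 were lower in Astro-KO mice, by 0.01 for Nfkb1 to 0.53 for Tnfaip3 on the log2 scale, and the libraries overlapped in each gene, while 10.1% of all genes were lower without overlap. Nfkb1 (83.2 ± 8.09 CPM in wild-type, 82.7 ± 3.45 in Astro-KO mice) and Tnfrsf12a (100.7 ± 11.3 and 96.0 ± 58.8) had nearly equal means. For Nfkb1, Nfkb2, Tnf and Tnfrsf12a the direction turned when single libraries or mice were left out.

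The difference between the occlusion responses of the genotypes was tested as an interaction. It was called for 0 of 10 genes and for 0 of all 15571, and at an unadjusted p under 0.05 in edgeR it held 0 of the 10, against 4.90% of all genes. DESeq2 called 20 genes, none among the 10, and limma-voom called 0. The largest values were 1.45 ± 0.79 for Tnfrsf12a, a larger rise in Astro-KO mice, and -1.14 ± 0.63 for Tnfaip3, a smaller one (edgeR adjusted p = 0.949 for each). Without mouse 296 the Tnfrsf12a value was 0.43. The greater number of calls in wild-type than in Astro-KO mice is therefore not shown to be a difference between them. With the mouse as a block the counts were equal, at 9 of 10 genes in each genotype.

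The rest of the pathway was read from 8 lists holding 102 genes, also chosen with earlier results known. Each list is described by its counts. These are to be read against the 9.61% of all genes called higher and 9.54% called lower in wild-type mice, and 5.45% and 0.841% in Astro-KO mice. Of the TNF family ligands, listed with their sheddase gene Adam17, 10 of 18 had enough counts to be tested. In wild-type mice 2 rose and 2 fell, and in Astro-KO mice 2 rose. Tnfsf9, the ligand of the costimulatory receptor 4-1BB, rose from 5.54 ± 4.47 to 31.7 ± 12.9 CPM in wild-type (2.52 ± 0.50; edgeR adjusted p = 0.00620) and from 2.05 ± 0.72 to 18.7 ± 5.90 in Astro-KO mice (3.20 ± 0.53; 0.0100). Tnfsf11, which encodes RANKL, was scarce. It had 8 counts over the wild-type contralateral libraries and 39 over the ipsilateral ones (2.11 ± 0.61; edgeR adjusted p = 0.0320). In Astro-KO mice it had 2 and 28, a ratio of 14.99 per total count with a 95% exact counting interval of 3.78 to 130 that covers counting error only. Eda (-0.77 ± 0.16) and Tnfsf13 (-1.17 ± 0.37) fell in wild-type mice.

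Of the TNF family receptors 17 of 18 were tested. In wild-type mice 7 rose and 1 fell, and in Astro-KO mice 5 rose. The p75 TNF receptor gene Tnfrsf1b rose from 11.1 ± 1.93 to 32.1 ± 8.02 CPM in wild-type mice (1.54 ± 0.26; edgeR adjusted p = 0.00310) and from 14.1 ± 3.07 to 31.2 ± 8.38 in Astro-KO mice (1.15 ± 0.26; 0.0259). The p55 receptor gene Tnfrsf1a, the main receptor for soluble TNF, rose from 128 ± 32.0 to 239.7 ± 13.8 CPM (0.91 ± 0.23; edgeR adjusted p = 0.0182) and from 111 ± 22.2 to 274 ± 71.9 (1.31 ± 0.23; 0.0123). Both TNF receptors thus rose in both genotypes.

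Eda2r, a receptor of the ectodysplasin ligand, rose by 2.59 ± 0.56 in wild-type and 2.64 ± 0.57 in Astro-KO mice. The death receptor gene Tnfrsf10b also rose in both, by 1.90 ± 0.45 and 2.19 ± 0.46. Tnfrsf11a, the receptor RANK, rose in wild-type mice (1.71 ± 0.33), and its value in Astro-KO mice was 0.91 ± 0.32 (edgeR adjusted p = 0.103). The lymphotoxin β receptor gene Ltbr rose in Astro-KO mice (0.95 ± 0.20) and had 0.56 ± 0.20 in wild-type mice (edgeR adjusted p = 0.0734). Edar, another ectodysplasin receptor gene, fell in wild-type mice (-1.91 ± 0.40).

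Of the 11 TRAF proteins and adaptors 2 rose and 1 fell in wild-type mice and 1 rose in Astro-KO mice. Ripk1, the kinase at the TNF receptor, rose by 0.66 ± 0.14 and 0.50 ± 0.13 in the 2 genotypes. Birc2, a ubiquitin ligase of the same complex, rose in wild-type mice (0.52 ± 0.16), and Traf4 fell (-0.66 ± 0.19).

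Of the 10 genes for IKK and its upstream kinases 2 rose and 1 fell in wild-type mice and 1 rose in Astro-KO mice. Map3k14, the NIK gene of the non-canonical route, rose from 23.0 ± 7.73 to 50.2 ± 6.63 CPM (1.12 ± 0.24; edgeR adjusted p = 0.00914) and from 22.1 ± 3.01 to 47.3 ± 12.1 (1.10 ± 0.24; 0.0247). The IKK scaffold gene Ikbkg rose (0.55 ± 0.13) and Tab1, an activator of the kinase TAK1, fell (-0.54 ± 0.17) in wild-type mice.

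The 4 remaining Rel and IκB genes had 2 rises in wild-type mice and 0 in Astro-KO mice. In each genotype 3 had an unadjusted p under 0.05 in edgeR. Of all genes, 34.2% in wild-type and 26.3% in Astro-KO mice passed that threshold. Rel, which encodes the subunit c-Rel, rose from 7.59 ± 2.22 to 17.5 ± 3.10 CPM (1.20 ± 0.28; edgeR adjusted p = 0.0118). Nfkbie, the IκBε gene, rose from 4.67 ± 1.07 to 11.5 ± 5.31 (1.30 ± 0.33; 0.0181). In Astro-KO mice their values were 0.52 ± 0.27 and 0.73 ± 0.32. Of the 11 tested ubiquitin editors and other brakes on the pathway, 0 were called by edgeR in either genotype. In each genotype 2 had an unadjusted p under 0.05 in edgeR, a smaller share than over all genes. Tnfaip3, which belongs to the same class, is counted with the 10 genes. N4bp1 (0.28 ± 0.12) and Tnip2 (0.53 ± 0.24) had the smallest p in wild-type mice, with edgeR adjusted p of 0.128 and 0.137.

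Entry through interleukin 1 and Toll-like receptors had 5 of 11 genes rising in wild-type and 4 in Astro-KO mice. Cd14, the co-receptor for lipopolysaccharide, rose from 40.2 ± 29.7 to 276 ± 85.1 CPM (2.78 ± 0.46; edgeR adjusted p = 0.00284) and from 42.4 ± 12.6 to 178 ± 44.9 (2.07 ± 0.45; 0.0236). Tlr4, the receptor for lipopolysaccharide, rose in both genotypes (1.32 ± 0.23 and 1.14 ± 0.23), as did the adaptor gene Myd88 (1.02 ± 0.21 and 0.76 ± 0.20). Tlr2 rose in wild-type mice (2.23 ± 0.36), and its value in Astro-KO mice was 1.22 ± 0.35 (edgeR adjusted p = 0.0601).

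Textbook NF-κB targets had the largest list median, 1.71 in wild-type and 2.16 in Astro-KO mice, against -0.06 and -0.01 over all genes. Of 17 tested, 9 rose in wild-type and 7 in Astro-KO mice, and none fell. Ptgs2, which encodes cyclooxygenase 2, rose from 12.2 ± 6.36 to 114 ± 37.6 CPM (3.22 ± 0.38; edgeR adjusted p = 0.000898) and from 10.9 ± 3.93 to 81.8 ± 9.64 (2.90 ± 0.38; 0.00428). The monocyte chemokine gene Ccl2 rose by 2.97 ± 0.42 and 2.17 ± 0.40. The adhesion molecule gene Icam1 rose by 1.71 ± 0.27 and 1.45 ± 0.27. Cxcl2, a neutrophil chemokine gene, rose by 2.79 ± 0.44 and 1.53 ± 0.41, and Gadd45b, a stress response gene, by 2.62 ± 0.47 and 2.50 ± 0.47.

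**Figure D5:**
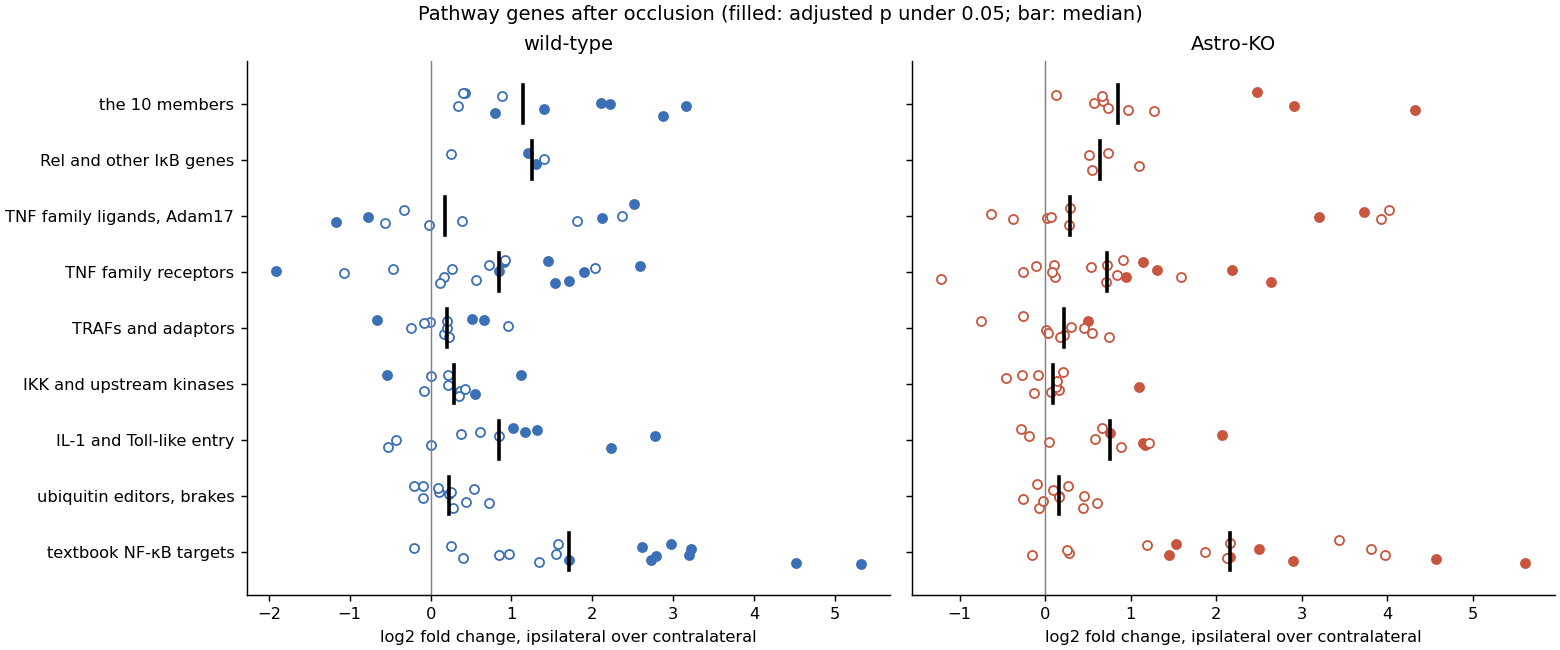
Log2 fold change (ipsilateral over contralateral) of every tested gene of the 10 genes and the 8 pathway lists, in wild-type and Astro-KO mice; each point is a gene, filled where the edgeR adjusted p is under 0.05, and the bar is the list median. The NF-κB targets have the largest medians, 1.71 and 2.16, and the ubiquitin editors have no filled point.

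With the mouse as a block, where 14.7% and 10.9% of all genes were called higher in wild-type and Astro-KO mice, the called rises among the targets were 14 of 17 in each genotype. In wild-type mice 4 of 10 ligands were then called higher, and 2 of 11 ubiquitin editors, which is close to the share of all genes. The called falls in wild-type mice were 3 among the TNF family receptors. The ligands, the TRAF proteins and adaptors, the IKK and upstream kinases, and the interleukin 1 and Toll-like list had 1 each. The share of all genes called lower in this fit is not given here, so the falls are counts only. In Astro-KO mice the called rises were then 8 of 11 for the interleukin 1 and Toll-like list, 3 of 10 for the ligands and 2 of 11 for the adaptors. Of the 28 pathway genes named and called in wild-type mice, 7 kept their call in all 18 fits that left out a library or a mouse. Of the 18 in Astro-KO mice, 0 did, and each lost it in 1 to 14 of these fits. The marker changes given for the 10 genes are from the same libraries as these lists, and their part here was not tested either.

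Between the genotypes the pathway lists held 5 calls in 4 genes, 1 contralaterally and 4 ipsilaterally. Of all genes tested, 1.50% were called contralaterally and 6.31% ipsilaterally, and the lists held no larger share than that. Il1rap, the accessory chain that the interleukin 1 receptor needs to signal, was lower in Astro-KO mice on both sides. It stood at 107 ± 14.0 CPM in wild-type and 44.05 ± 4.48 in Astro-KO contralateral libraries (-1.28 ± 0.18; edgeR adjusted p = 0.0102). Ipsilaterally it stood at 240.5 ± 63.4 and 99.3 ± 5.64 (-1.28 ± 0.18; edgeR adjusted p = 0.00659). It was higher ipsilaterally than contralaterally by 1.17 ± 0.18 in wild-type and 1.17 ± 0.18 in Astro-KO mice, and its interaction was 0.01 ± 0.25. The contralateral call was lost without mouse 298 or 300 or the contralateral library of either (edgeR adjusted p = 0.0801 to 0.103), and the ipsilateral one without mouse 297 (0.0596). In the contralateral libraries 5 of 10 oligodendrocyte markers were called lower in Astro-KO mice (median -1.43), and 1 choroid plexus and 1 neuronal marker were too. Their part in the Il1rap difference was not tested.

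On the ipsilateral side Traf6, the adaptor ligase downstream of Myd88, was lower (72.1 ± 8.88 CPM in wild-type and 48.4 ± 3.55 in Astro-KO mice, -0.57 ± 0.12; edgeR adjusted p = 0.0187). Eda (0.78 ± 0.16; 0.0193) and the receptor gene Tnfrsf19 (0.99 ± 0.26; 0.0444) were higher there in Astro-KO mice. Traf6 and Eda each lost the call in 7 and Tnfrsf19 in 13 of 18 fits that left out a library or a mouse. In these ipsilateral libraries astrocyte markers summed to 8844 to 10068 CPM in wild-type and 15891 to 26550 in Astro-KO mice, with 8 of 10 markers called higher. Mural markers had 5 of 10 called higher (median 0.61). Called lower were 3 of 10 oligodendrocyte markers (median -0.99), 2 choroid plexus and ependymal markers and 1 neuronal marker. The part of these in the 4 genes was not tested.

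Levels can be set side by side between genes only per length, as TPM. Nfkbia had the highest TPM of the 10 genes in each group. Its means were 462 ± 228 and 628 ± 233 TPM on the contralateral and ipsilateral side of wild-type mice, and 329 ± 60.2 and 461 ± 4.08 in Astro-KO mice. Rela was second contralaterally (108 ± 27.7 and 84.6 ± 3.41 TPM in wild-type and Astro-KO mice), and all its libraries were below those of Nfkbia. Ipsilaterally Tnfrsf12a (347 ± 52.2 and 299 ± 157 TPM) and Tnf (261 ± 70.0 and 223 ± 163 TPM) took the second and the third place. In wild-type ipsilateral libraries Nfkbia and Tnfrsf12a overlapped, as did Tnfrsf12a and Tnf.

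Below these, Tnf, Rela, Nfkbiz and Tnfaip3 were apart from one to the next in wild-type ipsilateral libraries. Tnfaip3, Bcl3, Nfkb2 and Nfkb1 followed at 64.3, 51.4, 46.5 and 44.3 TPM, and neighbours in this order overlapped. In Astro-KO ipsilateral libraries every pair of neighbours from Tnfrsf12a down to Bcl3 overlapped. Relb was lowest ipsilaterally (24.5 ± 11.1 and 16.4 ± 2.30 TPM) and Bcl3 contralaterally (10.7 ± 6.15 and 5.70 ± 3.11 TPM). The length implied by the deposited counts and RPKM was 0.498 of the annotated exon length for Tnfrsf12a, 0.516 for Nfkb1, 0.718 for Nfkb2 and 0.884 for Rela (0.980 for Nfkbia and 1 for the others), the same in all 12 libraries. That leaves comparisons between libraries as they are and makes the rank of these genes less certain.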

How the data were processed

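RNA of ACSA-2-selected cells from both hemispheres of 6 mice was analysed, 12 libraries in 4 groups of 3. Counts per gene are the whole-number expression values deposited by the authors. The deposited TPM served to compare levels between genes, and the deposited RPKM only to check units. The submitters' processing notes name mm10 as the build. Aligner, counter and strandedness were not given in the sources used here. Of 48709 gene identifiers 48349 were found in the GENCODE M21 annotation. The labels do not say whether libraries were prepared together.

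The main test was edgeR 4.0.16 (R 4.3.3) on the counts of 15571 genes kept by filterByExpr (minimum count 10), with TMM scaling, a robust quasi-likelihood fit of 1 term per group (8 residual degrees of freedom) and Benjamini-Hochberg adjustment over all genes tested. SEs are approximate, the size of the log2 fold change over the root of the F statistic. Alternatives were DESeq2 1.42.0, limma-voom (limma 3.58.1), RLE and upper-quartile scaling, other filters, no robust estimation, only the groups compared, limma-trend on log2(TPM + 1) and log2(TPM + 0.1), the mouse as a block, and each library or mouse left out. The procedure was tested on simulated data. No library duplicated another of its group: chi-squared per degree of freedom between libraries of a group was 11.3 to 70.6.

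The hemispheres of a mouse were paired by its animal number. Deviations of its 2 libraries from their group means correlated over 13586 genes at 0.68, -0.01, 0.42, 0.36, 0.45 and 0.19 in mice 296, 297, 474, 295, 298 and 300.

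The members and lists were chosen with earlier results of these data known. From each pathway list up to 4 called genes with the smallest adjusted p were named per comparison, or the 2 with the smallest p where none was called, and values of a named gene in another comparison were added where they help. Promoter sequences are from RefSeq (GRCm38.p6) and the 3′ UTR from GENCODE M21. How far the alleles were deleted is not reported here.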

Additional observations from a re-analysis of the deposited data

How the results depend on the processing

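The counts of 0 among the 10 genes between the genotypes and for the interaction were the same under all alternatives run. In wild-type mice the count of 7 was 5 to 9 over the other settings and 0 to 8 on leaving out a library or mouse. The wild-type calls of Nfkb1 and Nfkb2 were lost in 9 and 6 of these 18 fits. Nfkb1 was also lost with only the groups compared (adjusted p = 0.0921 in edgeR) and with either TPM fit (0.0585 and 0.0577 in limma-trend), and Nfkb2 with only the groups compared (0.0629 in edgeR). In Astro-KO mice the count of 3 was 6 with DESeq2, 7 with only the groups compared and 9 with the mouse as a replicate block, and 0 to 7 on leaving out a library or mouse. Tnf lost its Astro-KO call with limma-voom (adjusted p = 0.0916), with no filter beyond 1 count (0.0712 in edgeR) and with log2(TPM + 1) or log2(TPM + 0.1) (0.110 and 0.114 in limma-trend). The cause was not tested.

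With TPM the median over all genes moved from -0.01 to -0.17 and -0.19 (pseudocounts 1 and 0.1) in the Astro-KO occlusion response, from 0.00 to 0.12 and 0.14 in the contralateral genotype comparison, and from 0.06 to -0.16 and -0.17 in the interaction. Against that shift, Nfkb1 in the Astro-KO response turned to -0.0413 and -0.0424, and Rela in the interaction to -0.0228 and -0.0224. Nfkb1 in the ipsilateral genotype comparison was 0.0005 with the filter of 1 CPM. On leaving out a library or mouse, uncalled values that turned were, for the ipsilateral genotype comparison, Nfkb1 (-0.0514 to 0.0786), Nfkb2 (-0.25 to 0.15), Tnf (-0.61 to 0.25), Tnfrsf12a (-0.62 to 0.34) and Nfkbie (-0.68 to 0.0045). For the contralateral one Nfkb2 ran from -0.0834 to 0.28. In the interaction these were Nfkb2 (-0.36 to 0.0677), Rela (-0.0234 to 0.44), Relb (-0.0758 to 0.81), Nfkbia (-0.21 to 0.54) and Cxcl10 (-0.48 to 3.72). Among the pathway lists, counts of rises not given with the results moved by at most 1.5 times under the block. Depth limits Tnfsf11, and with 3 libraries a group the extremes of a group were not tested.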
